A study of Mus musculus with 24 samples.

Results

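The genes described here are 10 markers of type 1 alveolar epithelial cells (AEC1s), the flat cells that cover most of the gas exchange surface of the lung. They are Ager, Pdpn, Hopx, Cav1, Cavin1, Aqp5, Clic5, Emp2, Rtkn2, and Spock2. They were taken by name from a deposited table of 55421 mouse genes, and all 10 had enough counts to be tested among 18046 genes. RNA was measured in type 2 alveolar epithelial cells (AEC2s) of wild-type (WT, Krt8+/+) and global Krt8 knockout (KO, Krt8-/-) mice, either freshly isolated (day 0) or after 1, 3, or 7 days in 2D culture. The labels give 3 batches, each numbered as 1 biological replicate and holding 1 library of each genotype on each day, which makes 8 groups of 3 replicates and 24 libraries. All 24 libraries carry the label alveolar epithelial cells, no treatment other than culture, and neither the age of the mice nor whether animals were pooled. The questions were in which order AEC1 genes rise as AEC2s change in culture, and whether loss of Krt8, a keratin of the transitional state, alters those genes, Aqp5 among them.

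AEC2s are cuboidal, store surfactant in lamellar bodies, and can divide to renew the alveolar lining. After injury they lose surfactant genes, pass through a keratin-rich transitional state, and can flatten into AEC1s. AEC1s are rich in caveolae, the membrane pits built from caveolins and cavins, and carry water channels, chloride channel family proteins, and surface glycoproteins that serve as their markers. Some of these genes, such as Ager and Aqp5, are also found in mouse AEC2s at a lower level.

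To show the DNA in front of genes with 4 different courses in culture, the 250 bases before the RefSeq start site (GRCm38.p6) of Ager, Pdpn, Clic5, and Cav1 are printed below, 5′ to 3′ on the strand of the gene. Ager fell on day 1, Pdpn rose by day 1 with no further step called, Clic5 was highest on day 3, and Cav1 was highest on day 7. Capitals mark a match to 1 of 5 motifs searched on both strands, as described after the sequences.
Ager, chr17:34597600-34597849, plus strand: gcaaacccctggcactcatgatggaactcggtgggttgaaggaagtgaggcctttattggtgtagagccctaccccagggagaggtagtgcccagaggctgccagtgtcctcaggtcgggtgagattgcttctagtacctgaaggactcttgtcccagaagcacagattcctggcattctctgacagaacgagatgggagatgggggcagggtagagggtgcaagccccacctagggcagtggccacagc
Pdpn, chr4:143299565-143299814, minus strand: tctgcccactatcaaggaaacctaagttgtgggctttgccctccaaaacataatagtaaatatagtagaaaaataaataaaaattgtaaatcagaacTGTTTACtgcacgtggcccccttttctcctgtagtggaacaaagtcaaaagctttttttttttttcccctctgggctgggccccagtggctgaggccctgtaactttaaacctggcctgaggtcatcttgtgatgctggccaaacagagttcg
Clic5, chr17:44188322-44188571, plus strand: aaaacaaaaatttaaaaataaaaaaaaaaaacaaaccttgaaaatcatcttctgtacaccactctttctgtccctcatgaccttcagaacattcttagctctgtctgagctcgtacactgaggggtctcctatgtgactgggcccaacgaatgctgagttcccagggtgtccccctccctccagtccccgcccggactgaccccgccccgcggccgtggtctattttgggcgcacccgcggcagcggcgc
Cav1, chr6:17306085-17306334, plus strand: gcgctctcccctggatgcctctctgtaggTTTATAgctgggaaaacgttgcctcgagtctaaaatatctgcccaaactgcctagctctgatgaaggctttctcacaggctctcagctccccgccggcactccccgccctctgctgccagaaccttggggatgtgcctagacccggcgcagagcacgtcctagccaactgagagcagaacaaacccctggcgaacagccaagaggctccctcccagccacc
In Pdpn the capitals are a forkhead motif (TGTTTAC) that starts 153 bases before the start site, and in Cav1 they are a TATA box motif (TATAAA, on the opposite strand) that starts 221 bases before it. No capitals stand in the windows of Ager and Clic5. RefSeq promoters were matched for 9 of the 10 genes, all but Rtkn2. Beside the 2 matches shown, Cavin1 had a TEAD motif (GGAATG, on the opposite strand) 247 bases before its start. AP-1 (TGANTCA) and NKX2-1 (CAAGTG) motifs were found in 0 of 9 windows. Of 32851 mouse windows of 250 bases, 12.4% held the TATA box motif, 12.6% the TEAD motif, 6.75% the AP-1 motif, 11.6% the NKX2-1 motif, and 3.17% the forkhead motif. The matches in the 9 windows did not overlap each other. GC content ran from 43.2% in Pdpn, lower than in most windows (19% of all windows had less), to 78.4% in Aqp5, which exceeded 98.1% of all windows. The median over all windows was 52.4%. The windows of Aqp5 (246 bases) and Cavin1 (250 bases) lie in exons of the GENCODE annotation and are not printed.

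Total counts per library ranged from 10184439 to 19483386. Values are given as CPM, the count of a gene scaled to the library size with edgeR's TMM factors, for replicates 1, 2, and 3 in that order. Krt8 was counted at 485 to 552 CPM on day 0 and at 2599 to 5092 CPM on days 1 to 7 in Krt8+/+ AECs, against 21.2 to 47.4 CPM in all Krt8-/- libraries. All 11 AEC2 markers were counted in each group, and over both genotypes they summed to between 269915 and 361217 CPM on day 0 and to between 242 and 3226 CPM on day 7. The sum was 19818 and 18559 CPM in replicate 2 on day 1, against between 81659.5 and 110189 CPM in the other replicates that day. Markers of other cells also moved with culture. The sum of 8 fibroblast markers lay between 296 and 994 CPM before culture, between 98.2 and 261 CPM on day 1, between 632 and 1789.6 CPM on day 3, and between 835 and 3178 CPM on day 7. That of 5 mesothelial markers lay between 74.2 and 227 CPM before culture and between 902 and 2468 CPM on day 7. The 8 macrophage markers summed to between 12.6 and 153 CPM before culture and between 46.0 and 460 CPM on day 1. On day 7 they summed to between 9.41 and 249.8 CPM. Their sum was highest in replicate 1 and lowest in replicate 3 on each day in both genotypes. The 8 endothelial markers summed to at most 34.7 CPM before culture and at most 5.1 CPM on day 7, when 4 of the 8 were at 0 counts in Krt8+/+ AECs. The 6 ciliated or club cell markers summed to between 5816 and 19613 CPM before culture and between 16.8 and 36.8 CPM on day 7, and 4 lymphatic endothelial markers to between 0.405 and 1.84 CPM and between 36.0 and 73.2 CPM. Of these 4, Lyve1 was at 0 counts in Krt8-/- AECs on day 7 and in Krt8+/+ AECs on day 3. Mmrn1 was at 0 counts in both genotypes on day 1 and in Krt8-/- AECs on day 3. The part of other cells in the courses of the members was not tested. In replicate 1, 4 Y-linked genes summed to at least 173 CPM in each Krt8-/- library but to at most 0.441 CPM in the Krt8+/+ libraries, so that sex and genotype changed together there. Both genotypes were low for the Y-linked genes in replicate 2 and high in replicate 3.

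Over culture, 8 of the 10 genes ended above day 0 in Krt8+/+ AECs and 1, Aqp5, ended below it, while Ager did not pass the test on day 7. On day 1, edgeR's quasi-likelihood F test (Benjamini-Hochberg threshold 0.05 over all genes tested) called 4 members higher, where 26.2% of all genes tested were called higher, and 5 lower, where 28.5% were. The higher ones were Pdpn, Hopx, Cavin1, and Clic5, and the lower ones were Ager, Aqp5, Emp2, Rtkn2, and Spock2. On day 3, 7 were higher (26.1% of all genes) and 2 lower (27.8%), and on day 7, 8 were higher (28.6%) and 1 lower (30.2%). The median log2 difference of the 10 genes from day 0 was -0.13, 1.21, and 1.72 on days 1, 3, and 7, against 0.00 over all genes tested on each day. In Krt8-/- AECs, 3 were higher and 5 lower on day 1 (23.7% and 26.9% of all genes), 7 and 3 on day 3 (25.4% and 26.6%), and 7 and 2 on day 7 (28.6% and 29.9%). The libraries are bulk RNA, so fewer AEC1-like cells and less RNA of a gene per cell cannot be told apart.

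**Figure D1:**
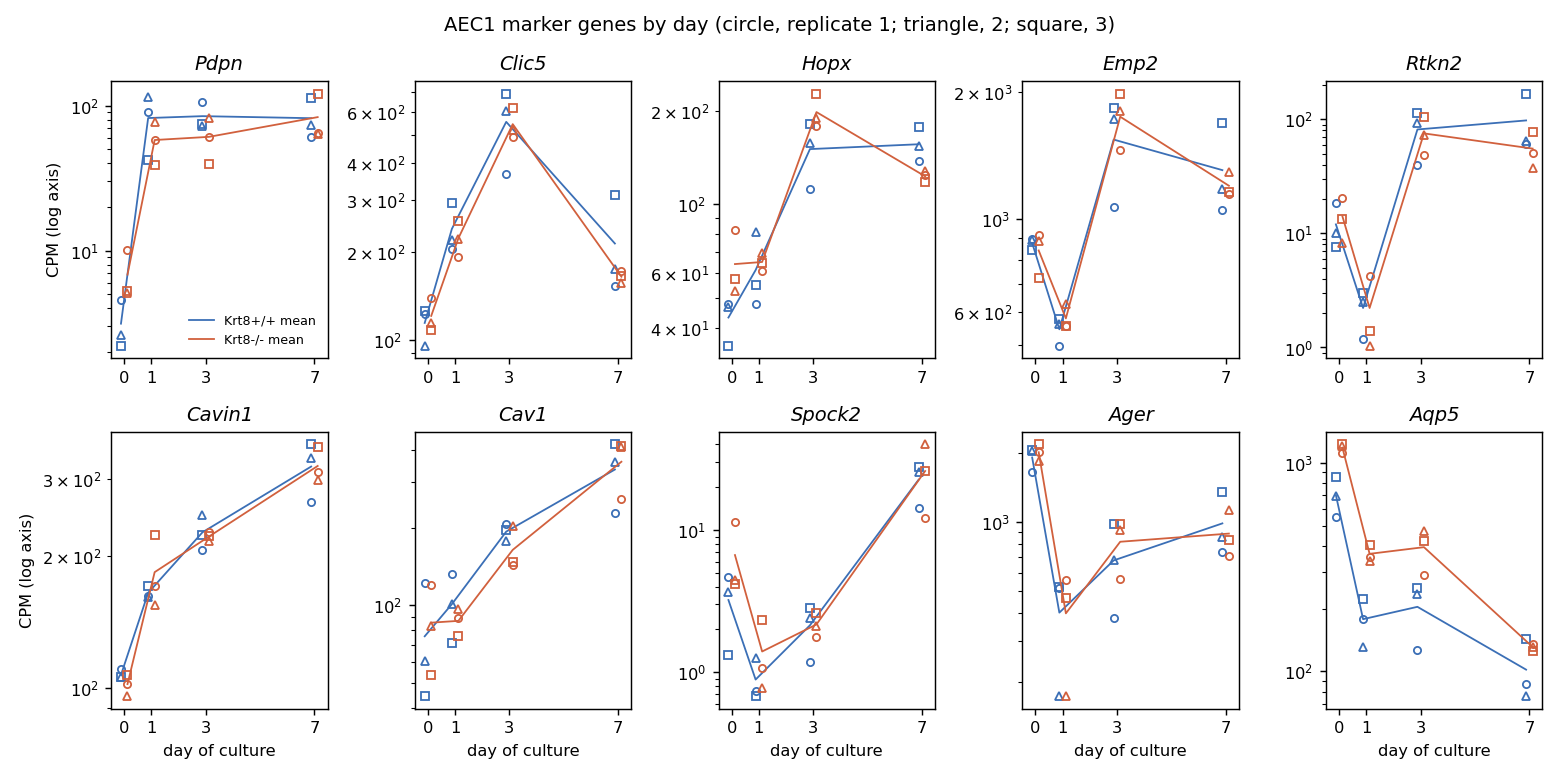
CPM on a log axis against the day of culture for the 10 AEC1 marker genes, with 1 symbol per library (circle, replicate 1, triangle, replicate 2, square, replicate 3) and a line through the group means of Krt8+/+ (blue) and Krt8-/- (red) AECs. Pdpn was already at 38.7 to 114 CPM on day 1, Clic5 and Emp2 had their highest means on day 3, Cav1, Cavin1, and Spock2 had theirs on day 7, and Ager and Aqp5 stayed below day 0.

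Ager encodes RAGE, a pattern recognition receptor of the basal AEC1 membrane (ENSMUSG00000015452, chromosome 17, 34597862 to 34600936, plus strand, GRCm38). Its Krt8+/+ levels were 1643, 2033, and 2051 CPM on day 0 and 512, 174, and 518 CPM on day 1. On day 3 it was at 379.6, 679, and 977 CPM, and on day 7 at 741, 861, and 1349.6 CPM. The days did not overlap day 0, and the level on day 1 was lowest in replicate 2, the replicate with the lowest AEC2 marker sum that day. By day 7 the level had climbed again, and all day 7 libraries stood above all day 1 libraries, a step that was not tested. The log2 difference from day 0 was -2.25 on day 1 (standard error 0.43, adjusted p = 1.7e-04), -1.49 on day 3 (0.42, adjusted p = 0.00465), and -0.96 on day 7 (0.41, adjusted p = 0.0511). The day 7 difference passed the threshold with the DESeq2 test (adjusted p = 0.0304), without the filter on low counts (0.0253), and with the batches as a replicate block (0.0316). The Krt8-/- levels on day 0 were 2009.6, 1849, and 2181 CPM and those on day 7 were 706, 1123, and 834 CPM, a log2 difference of -1.18 (standard error 0.41, adjusted p = 0.0183). Without replicate 1 or 3 the Krt8-/- calls were lost on day 3 (adjusted p = 0.0920 and 0.0587) and on day 7 (0.0947 and 0.121).

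Pdpn encodes podoplanin, a mucin-like glycoprotein of the apical AEC1 membrane (ENSMUSG00000028583, chromosome 4, 143267431 to 143299564, minus strand). It was at 4.58, 2.60, and 2.21 CPM on day 0 in Krt8+/+ AECs and at 90.6, 114, and 42.0 CPM on day 1. The levels were 106, 72.6, and 74.9 CPM on day 3 and 60.7, 73.1, and 112 CPM on day 7. All cultured libraries stood above all day 0 libraries, and the 3 culture days overlapped each other. The log2 differences from day 0 were 4.66, 4.70, and 4.66 on days 1, 3, and 7 (standard error 0.47 each, adjusted p at most 7.4e-08), that is 25.2-fold, 26.0-fold, and 25.2-fold. From day 1 to day 3 the difference was 0.05 (standard error 0.38, adjusted p = 0.944). In Krt8-/- AECs, Pdpn was 8.41-fold, 8.84-fold, and 12.1-fold above day 0 on these days (log2 standard errors 0.42 to 0.43, adjusted p at most 5.4e-06).

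Hopx encodes a small homeodomain protein without DNA binding of its own that is used to trace AEC1s (ENSMUSG00000059325, chromosome 5, 77086988 to 77115121, minus strand). Krt8+/+ levels were 47.9, 46.7, and 35.1 CPM on day 0 and 47.8, 81.5, and 54.9 CPM on day 1. They were 112, 158, and 181 CPM on day 3 and 138, 154, and 177 CPM on day 7. Day 1 overlapped day 0, whereas days 3 and 7 lay above both. The log2 difference from day 0 was 0.50 on day 1 (standard error 0.21, adjusted p = 0.0433), 1.80 on day 3, and 1.85 on day 7 (0.21 each, adjusted p at most 4.4e-07). The day 1 call was lost with the replicate block (adjusted p = 0.0519) and without replicate 2 or 3 (0.228 and 0.175). The Krt8-/- levels were 178, 189, and 227 CPM on day 3 and 124, 128, and 118 CPM on day 7, and the fall between them was -0.68 on the log2 scale (standard error 0.20, adjusted p = 0.0333). Without replicate 2 or 3 that fall did not pass (adjusted p = 0.107 and 0.311).

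Cav1 encodes caveolin-1, the main coat protein of caveolae (ENSMUSG00000007655, chromosome 6, 17306335 to 17341452, plus strand). In Krt8+/+ AECs it was at 122, 60.7, and 44.4 CPM on day 0 and at 132, 101, and 71.1 CPM on day 1. It was at 206, 177, and 195 CPM on day 3 and at 228, 359.8, and 421 CPM on day 7. Day 0 and day 1 overlapped, and replicate 1 was highest on both, the replicate in which the fibroblast markers were also highest in Krt8+/+ AECs (994 CPM on day 0 and 261 on day 1). The macrophage markers were highest in the same libraries too (153 CPM on day 0 and 460 on day 1). The mesothelial markers were highest in replicate 1 on day 0 (227 CPM) but lowest in it on day 1 (213 CPM). The part of other cells in these Cav1 levels was not tested. The log2 difference from day 0 was 0.41 on day 1 (standard error 0.33, adjusted p = 0.298), 1.34 on day 3 (0.33, adjusted p = 0.002), and 2.14 on day 7 (0.34, adjusted p = 1.8e-05). Without replicate 1 the day 1 difference was 0.71 and passed (adjusted p = 0.0374). Krt8-/- AECs had 120.3, 82.8, and 53.6 CPM on day 0 and 258, 410.1, and 413 CPM on day 7, a log2 difference of 2.07 (standard error 0.34, adjusted p = 2.7e-05). Their day 3 difference, 0.94, was lost without replicate 2 or 3 (adjusted p = 0.195 and 0.0938).

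Cavin1 encodes the cavin that joins caveolin-1 in the caveolar coat (ENSMUSG00000004044, chromosome 11, 100956733 to 100970887, minus strand). Its 3 replicates were the most alike of the members on day 0, at 110.4, 106, and 106 CPM in Krt8+/+ AECs. It was at 162, 161, and 171 CPM on day 1, at 207, 249, and 224 CPM on day 3, and at 267, 335, and 361 CPM on day 7. Each day stood above the day before without overlap in Krt8+/+ AECs. The log2 differences from day 0 were 0.62, 1.08, and 1.58 (standard error 0.13 each, adjusted p at most 4.7e-04), and in Krt8-/- AECs they were 0.85, 1.13, and 1.66 (0.13 each, adjusted p at most 1.9e-05). The step from day 3 to day 7 was 0.50 in Krt8+/+ AECs (adjusted p = 0.0204) and 0.54 in Krt8-/- AECs (adjusted p = 0.00939). Neither step passed when any 1 replicate was left out (adjusted p = 0.123 to 0.208 and 0.0814 to 0.119), and the Krt8+/+ step did not pass without the filter on low counts (0.0705). The Krt8+/+ step from day 1 to day 3, 0.46 (adjusted p = 0.0121), was lost without replicate 1 or 2 (0.0597 and 0.173).

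Clic5 encodes a chloride intracellular channel family protein linked to the actin cortex (ENSMUSG00000023959, chromosome 17, 44188584 to 44280172, plus strand). Krt8+/+ levels were 122, 95.4, and 125 CPM on day 0 and 204, 219.6, and 293 CPM on day 1. They reached 368, 604, and 693 CPM on day 3 and were 153, 174, and 311 CPM on day 7. Day 3 lay above all other days in both genotypes, and it was the highest day in 6 of 6 courses of 1 replicate and genotype. The log2 difference from day 0 was 1.07 on day 1 (standard error 0.24, adjusted p = 8.7e-04) and 2.28 on day 3 (0.25, adjusted p = 1.8e-07). From day 3 to day 7 Clic5 fell by 1.38 on the log2 scale in Krt8+/+ AECs (0.24, adjusted p = 0.00114) and by 1.73 in Krt8-/- AECs (0.24, adjusted p = 8.0e-05). Without replicate 2 the Krt8+/+ rise from day 1 to day 3 (adjusted p = 0.0550) and the fall that followed (0.118) did not pass.

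Emp2 encodes an epithelial membrane protein with 4 membrane spans (ENSMUSG00000022505, chromosome 16, 10281749 to 10313968, minus strand). It was at 895, 889, and 845 CPM on day 0 and at 499.5, 561, and 579 CPM on day 1 in Krt8+/+ AECs. On day 3 it was at 1066, 1726, and 1839 CPM and on day 7 at 1049, 1179, and 1689 CPM. All day 1 libraries were below day 0 and all day 3 and day 7 libraries were above it. The log2 differences were -0.68 on day 1 (standard error 0.19, adjusted p = 0.00448), 0.82 on day 3 (0.19, adjusted p = 9.9e-04), and 0.58 on day 7 (0.19, adjusted p = 0.0121). Krt8-/- AECs had differences of -0.54, 1.06, and 0.51 (0.19 each, adjusted p = 0.0219, 8.8e-05, and 0.0237). The day 1 calls were lost without replicate 2 (adjusted p = 0.0899 in Krt8+/+ and 0.193 in Krt8-/- AECs) and, in Krt8-/- AECs, without replicate 1 (0.0839). The day 7 calls were lost without replicate 3 (0.226 and 0.110) and, in Krt8-/- AECs, without replicate 2 (0.101).

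Rtkn2 encodes rhotekin 2 (ENSMUSG00000037846, chromosome 10, 67979570 to 68059740, plus strand). In Krt8+/+ AECs it was at 18.5, 10.1, and 7.53 CPM on day 0 and at 1.18, 2.51, and 2.99 CPM on day 1, from at most 44 counts in a library that day. It was at 39.7, 92.2, and 113 CPM on day 3 and at 61.0, 64.4, and 168 CPM on day 7. The rise from day 1 to day 3 was the widest step between days of any member, and day 1 overlapped no other day. The log2 difference was -2.45 from day 0 to day 1 (standard error 0.59, adjusted p = 0.00156) and 5.19 from day 1 to day 3 (0.62, adjusted p = 6.1e-06), a 36.5-fold rise. The same steps in Krt8-/- AECs were -2.72 (0.59, adjusted p = 7.4e-04) and 5.13 (0.62, adjusted p = 8.6e-06). The 8 fibroblast markers had their lowest sum on day 1 too (98.2 to 261 CPM), and the part of other cells in the course of Rtkn2 was not tested.

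Spock2 encodes testican-2, a secreted proteoglycan of the extracellular matrix (ENSMUSG00000058297, chromosome 10, 60106219 to 60135198, plus strand). It was at 4.64, 3.68, and 1.33 CPM on day 0 and at 0.734, 1.25, and 0.679 CPM on day 1 in Krt8+/+ AECs, with at most 15 counts in a library on day 1. It was at 1.18, 2.40, and 2.84 CPM on day 3 and at 14.2, 25.8, and 27.9 CPM on day 7. Only day 7 stood above day 0. The log2 difference from day 0 was -1.88 on day 1 (standard error 0.58, adjusted p = 0.00956), -0.61 on day 3 (0.53, adjusted p = 0.349), and 2.79 on day 7 (0.53, adjusted p = 1.3e-04). From day 3 to day 7 it rose 10.5-fold in Krt8+/+ (adjusted p = 4.9e-04) and 12-fold in Krt8-/- AECs (adjusted p = 1.7e-04). The Krt8-/- levels were 11.4, 4.45, and 4.17 CPM on day 0 and 12.1, 40.1, and 26.0 CPM on day 7. The Krt8+/+ day 1 call was lost without replicate 1 or 2 (adjusted p = 0.0634 and 0.0526). In Krt8-/- AECs, the day 3 fall from day 0 (-1.63, adjusted p = 0.013) was lost without replicate 1 or 2 (0.187 and 0.0606) and the day 7 rise (1.96, adjusted p = 0.00223) without replicate 2 (0.107).

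To set these courses in order, the midpoint day of each gene was read from each of the 6 courses of 1 replicate and genotype. It is the interpolated day on which CPM passed midway between the day 0 level and the highest later level, and it is a description without a test. Pdpn came first with a median midpoint day of 0.59, followed by Clic5 at 1.62, Hopx at 1.90, Emp2 at 2.25, Rtkn2 at 2.27, Cavin1 at 2.36, Cav1 at 3.78, and Spock2 at 5.13. Most neighbours in that order overlapped. The range was 0.50 to 4.16 for Pdpn, where replicate 3 was latest in both genotypes (1.91 and 4.16), 1.5 to 1.83 for Clic5, 1.55 to 2.40 for Hopx, and 2.12 to 2.7 for Emp2. It was 2.08 to 3.00 for Rtkn2, 2.19 to 3.27 for Cavin1, 2.16 to 4.61 for Cav1, and 4.88 to 6.86 for Spock2. Spock2 was the only gene whose range did not overlap its neighbour's. Its latest value, 6.86, came from Krt8-/- replicate 1, where Spock2 hardly rose (11.4 CPM on day 0 and 12.1 CPM on day 7, 1.06-fold). The median of Pdpn was 1.23 without replicate 1 and 1.25 without replicate 2. In replicate 3 Pdpn was at 112 and 121 CPM on day 7. In these libraries the fibroblast markers were also highest that day (1911 and 3178 CPM, against at most 1002 CPM in the others). The mesothelial markers were lowest in them (1007 and 902 CPM). On day 1, when Pdpn had already risen, the fibroblast markers had their lowest sums (98.2 to 261 CPM). The part of other cells in the Pdpn levels was not tested. Within courses, Clic5 came before Hopx in 5 of 6 and before Emp2, Rtkn2, Cavin1, Cav1, and Spock2 in 6 of 6. Hopx came before Emp2 and Rtkn2 in 6 of 6, Cavin1 before Cav1 in 5 of 6, and Pdpn before Clic5 in 4 of 6. Ager and Aqp5 were above day 0 on no later day in any of the 6 courses and have no midpoint. Among the culture days, Ager was highest on day 7 in 5 courses and on day 3 in 1. Aqp5 was highest on day 1 in 2 courses and on day 3 in 4. From day 1 to day 3 Ager differed by 0.76 on the log2 scale in Krt8+/+ AECs (adjusted p = 0.181) and by 1.04 in Krt8-/- AECs (0.0716). The latter passed with the DESeq2 test (0.0466) and without the filter on low counts (0.0277). On the log2(CPM + 1) scale the median of Cavin1 moved to 1.5, ahead of Hopx at 1.81, that of Clic5 to 1.15, and that of Cav1 to 2.55, while Pdpn stayed the earliest at 0.53 and Spock2 the latest at 5.40.

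**Figure D2:**
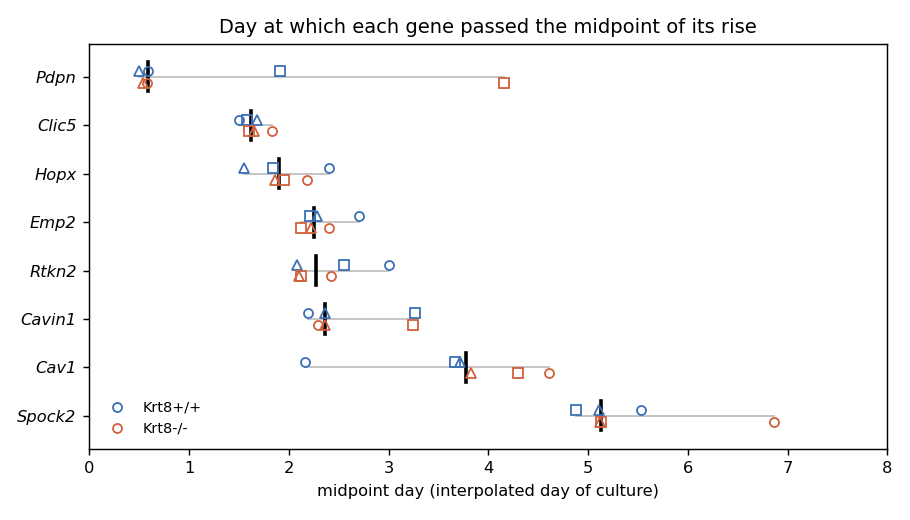
Midpoint day, on a linear axis of interpolated days of culture, for the 8 AEC1 marker genes that rose above day 0, with 1 symbol per course (circle, replicate 1, triangle, replicate 2, square, replicate 3, blue, Krt8+/+, red, Krt8-/-), a grey line for the range and a black bar for the median. Medians run from 0.59 for Pdpn to 5.13 for Spock2, and only Spock2 stands clear of its neighbour.

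The steps from one sampled day to the next were tested as well. From day 1 to day 3, 26.3% of all genes were called in Krt8+/+ AECs (14.4% higher and 11.9% lower), and 0 members fell and 6 rose, namely Hopx, Cav1, Cavin1, Clic5, Emp2, and Rtkn2. From day 3 to day 7, where 6.58% of all genes were called, 2 rose, Cavin1 and Spock2 (3.11%), and 2 fell, Aqp5 and Clic5 (3.47%). With Krt8 lost, 5 rose and 0 fell from day 1 to day 3 (13.4% and 10.2% of all genes, 23.6% in all). From day 3 to day 7 Cav1, Cavin1, and Spock2 rose there while Hopx, Aqp5, and Clic5 fell (4.4% and 6.15%, 10.5% in all). Without replicate 2 the number called was 3 from day 1 to day 3 in Krt8+/+ AECs, and 1 and 3 from day 3 to day 7 in Krt8+/+ and Krt8-/- AECs. Without replicate 3 the latter numbers were 2 and 3. These fits also have fewer libraries, and the share of all genes they called is not given. A loss particular to the members thus cannot be told from a general one. The Cav1 rise from day 1 to day 3 (log2 0.93 in Krt8+/+, adjusted p = 0.0439, and 0.92 in Krt8-/- AECs, adjusted p = 0.0499) was lost with DESeq2's size factors (0.0515 and 0.0591) and without replicate 2 or 3. The Krt8-/- rise of Cav1 from day 3 to day 7 (1.13, adjusted p = 0.0311) was lost without replicate 2 or 3 as well (0.178 and 0.165).

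Levels of different genes were compared as CPM per kb of annotated exon. Ager was highest in each of the 8 groups, with Krt8+/+ group means of 892 CPM per kb on day 0 and 459.6 CPM per kb on day 7, although its range overlapped the next gene's on day 1 in both genotypes and on day 3 in Krt8+/+ AECs. On day 0 Aqp5 (269) and Emp2 (101) came next, and neither overlapped its neighbours in the order. By day 7 Emp2 (151) was second, followed by Hopx (103), Cav1 (97.6), and Cavin1 (89.5), which overlapped each other, and Aqp5 had gone to seventh (39.4), overlapping Pdpn (45.1) and Clic5 (24.2). Spock2 was lowest in every group, with Krt8+/+ means of 0.582 CPM per kb on day 0 and 4.09 CPM per kb on day 7. Its range overlapped that of Rtkn2 on day 1 in both genotypes and on days 0 and 7 in Krt8-/- AECs. In Krt8+/+ libraries the 10 genes summed to between 3519 and 4071 CPM on day 0 and between 2799 and 4759 CPM on day 7, and Ager and Emp2 made up most of the sum on both days.

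Between genotypes, edgeR's main fit does not use the pairing by batch. In it, no member passed the threshold on any day, over days 1 to 7, or in the test of the genotype difference by day. On day 0, edgeR called 0 of 10, where 0.0277% of all genes were called, and 3 had an unadjusted p under 0.05. On days 1, 3, and 7 it called 0 of 10 (0.0166% of all genes each), and 1, 1, and 0 had an unadjusted p under 0.05. Over days 1 to 7, with the days weighted as in the area of a trapezoid, it called 0 (0.0277% of all genes), and in the test of the difference by day it called 0 (0.00554%), each with 1 unadjusted p under 0.05. DESeq2 called 0 of 10 in each of these except over days 1 to 7, where it called 1, Aqp5. The edgeR fit with the batches as a replicate block, which uses the pairing, also called Aqp5 over days 1 to 7 (adjusted p = 0.026). So did edgeR without the filter on low counts (0.0128). By edgeR, 2.59%, 3.5%, 2.42%, and 1.37% of the 17904 genes tested outside 5 Mb of Krt8 had an unadjusted p under 0.05 on days 0, 1, 3, and 7. Over days 1 to 7 that share was 2.77%, and it is not given for the test by day. A missed threshold does not show that the genotypes were alike. Over days 1 to 7 the log2 difference between Krt8-/- and Krt8+/+ AECs was 0.08 for Ager (standard error 0.25), -0.31 for Pdpn (0.23), 0.10 for Hopx (0.13), and -0.12 for Cav1 (0.20). It was 0.01 for Cavin1 (0.08), -0.16 for Clic5 (0.15), 0.06 for Emp2 (0.12), -0.34 for Rtkn2 (0.31), and 0.18 for Spock2 (0.33). Cavin1, whose log2 standard error was smallest, had the difference closest to 0.

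**Figure D3:**
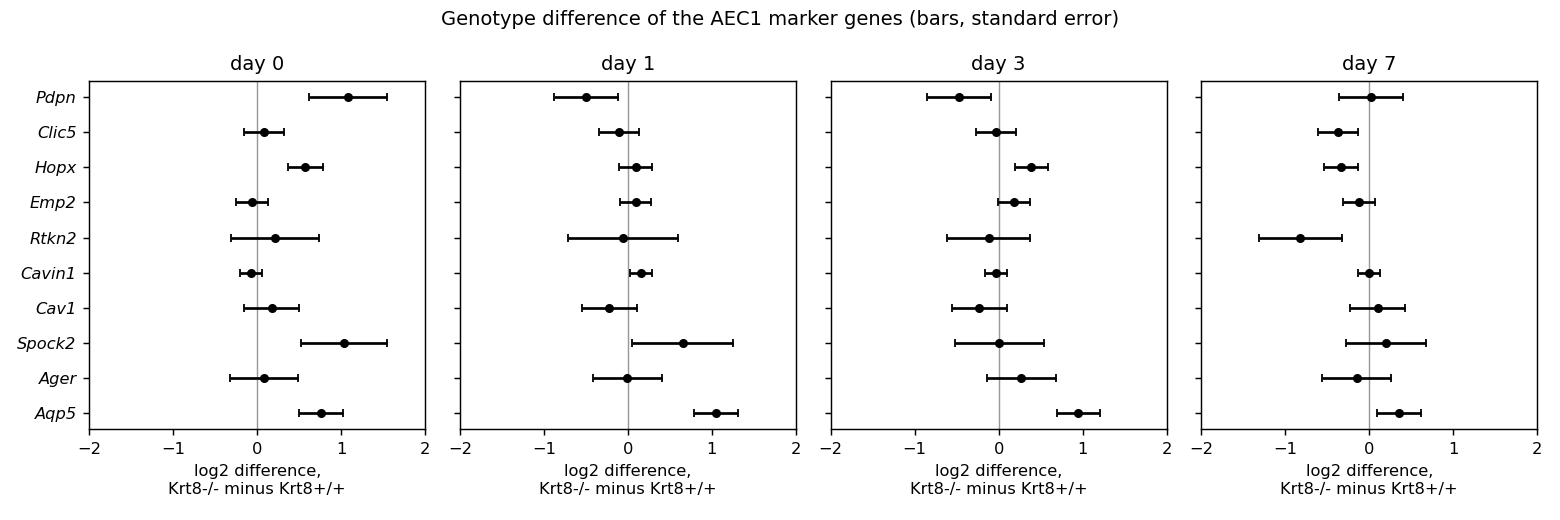
Log2 difference of each AEC1 marker gene between Krt8-/- and Krt8+/+ AECs on days 0, 1, 3, and 7, with bars for 1 standard error of edgeR's model (3 replicates per group). Aqp5 lies at 0.76, 1.05, 0.95, and 0.35 on these days, and Pdpn lies at 1.08 on day 0 and at -0.50 on day 1.

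Of the 4 days, day 0 was the only one on which Pdpn and Hopx had an unadjusted p under 0.05 between genotypes. Pdpn was at 10.1, 5.06, and 5.25 CPM in freshly isolated Krt8-/- AEC2s, above all Krt8+/+ libraries (2.21 to 4.58 CPM), a log2 difference of 1.08 (standard error 0.46, unadjusted p = 0.0276, adjusted p = 1). Hopx was at 82.4, 52.7, and 57.3 CPM against 35.1 to 47.9 CPM, a difference of 0.57 (standard error 0.21, unadjusted p = 0.0116, adjusted p = 1). With Aqp5, 3 of 10 members had groups without overlap on day 0, against 6.88% of all genes tested. On that day the 6 ciliated or club cell markers also stood apart, with sums of at least 14243 CPM in the Krt8-/- libraries and at most 11940.0 CPM in the Krt8+/+ libraries, and their part in these differences was not tested.

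Aqp5 encodes aquaporin-5, the apical water channel of AEC1s (ENSMUSG00000044217, chromosome 15, 99590782 to 99594829, plus strand), and it was higher in Krt8-/- AECs in nearly every pair of libraries. On day 0 it was at 550.4, 692, and 854 CPM in Krt8+/+ and 1117, 1199.7, and 1226 CPM in Krt8-/- AECs. On day 1 it was at 179, 131, and 223 CPM against 355, 339.8, and 404 CPM. The groups did not overlap on either day. On day 3 it was at 126, 235, and 251 CPM against 289, 473, and 420 CPM, and on day 7 at 87.3, 76.1, and 143 CPM against 136, 131, and 125 CPM. Day 3 again had no overlap, whereas on day 7 replicate 3 was lower in Krt8-/- AECs and the groups overlapped. Groups lay apart with Krt8-/- above for 3.14% of all genes on day 0, 3.49% on day 1, and 6.79% on day 3.

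On days 0, 1, 3, and 7, the ratio of Aqp5 in Krt8-/- over Krt8+/+ AECs of the same replicate was 1.73 ± 0.295, 2.13 ± 0.405, 1.99 ± 0.310, and 1.38 ± 0.449 (SD, n = 3). The ratio of the areas over days 1 to 7 was 2.04, 2.05, and 1.52 in replicates 1, 2, and 3. By edgeR the log2 difference was 0.76, 1.05, 0.95, and 0.35 on these days (standard error 0.26 each), with adjusted p of 1, 0.903, 1, and 1. Over days 1 to 7 it was 0.77 (standard error 0.16), with the 10th smallest p of 18046 genes (1.1e-04, adjusted p = 0.206). With the batches as a replicate block the value was 0.79 and passed (adjusted p = 0.0260), as it did with the DESeq2 test (0.75, adjusted p = 0.00685) and without the filter on low counts (0.76, adjusted p = 0.0128). These settings called 0.0499%, 0.0942%, and 0.0334% of their genes. Leaving out replicate 1, 2, or 3 gave 0.69, 0.66, and 0.97 with adjusted p of 1, 1, and 0.403. The difference was thus positive in every setting, and its call depended on the setting. The test of a change of the genotype difference by day gave an unadjusted p of 0.266 (adjusted p = 1).

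Within each genotype Aqp5 fell in culture. In Krt8+/+ AECs the log2 differences from day 0 were -1.98, -1.78, and -2.77 on days 1, 3, and 7 (standard errors 0.26 to 0.27, adjusted p at most 9.8e-06). The Krt8-/- differences were -1.69, -1.58, and -3.18 (0.26 to 0.28, adjusted p at most 3.8e-05). The step from day 3 to day 7 was -1.0 in Krt8+/+ (adjusted p = 0.0224) and -1.59 in Krt8-/- AECs (adjusted p = 3.8e-04), and the former did not pass without replicate 1, 2, or 3 (0.0514, 0.412, and 0.0561). In replicate 1, where the Y-linked genes differed between genotypes, the Aqp5 ratios were 2.03, 1.99, 2.29, and 1.56 on days 0, 1, 3, and 7. In replicates 2 and 3, where the Y-linked genes did not, the ratios ran from 1.44 to 2.59 on days 0 to 3 and were 1.72 and 0.874 on day 7.

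Aqp5 lies on the chromosome of Krt8 (chromosome 15, 101996698 to 102004482, minus strand), 2.40 Mb away. DNA that stays linked to the knocked-out allele when mice are bred and loss of Krt8 itself cannot be told apart in these groups. Within 5 Mb of Krt8, 140 genes other than Krt8 and Aqp5 were tested. Over days 1 to 7, 22 of them (15.7%) had an unadjusted p under 0.05 between genotypes, against 2.77% of 17904 genes elsewhere. The same shares were 9.29% and 2.59% on day 0. The genes called over days 1 to 7 were Krt8 (log2 difference -6.80), its pseudogene Krt8-ps (-6.63), Smarcd1 (-2.94), Gm47021 (1.42), and Pou6f1 (-1.39). Of these, Smarcd1, a subunit of SWI/SNF chromatin remodelling complexes, lies 2.28 Mb from Krt8 and 107 kb from Aqp5, and Pou6f1, a POU domain transcription factor, lies 1.4 Mb from Krt8. The 10 tested genes nearest to Aqp5 ranged from -2.94 for Smarcd1 (standard error 0.18) to 0.54 for Gpd1 (0.16), with 0.45 for Faim2 (0.35) and -0.81 for Asic1 (0.27). Racgap1, the nearest at 25.7 kb, was at -0.17 (0.20). Bcdin3d, Cox14, Nckap5l, Cers5, and Tmbim6 were at -0.11, 0.10, -0.31, 0.03, and -0.03. Only Smarcd1, Gpd1, and Asic1 had an unadjusted p under 0.05 by edgeR.

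**Figure D4:**
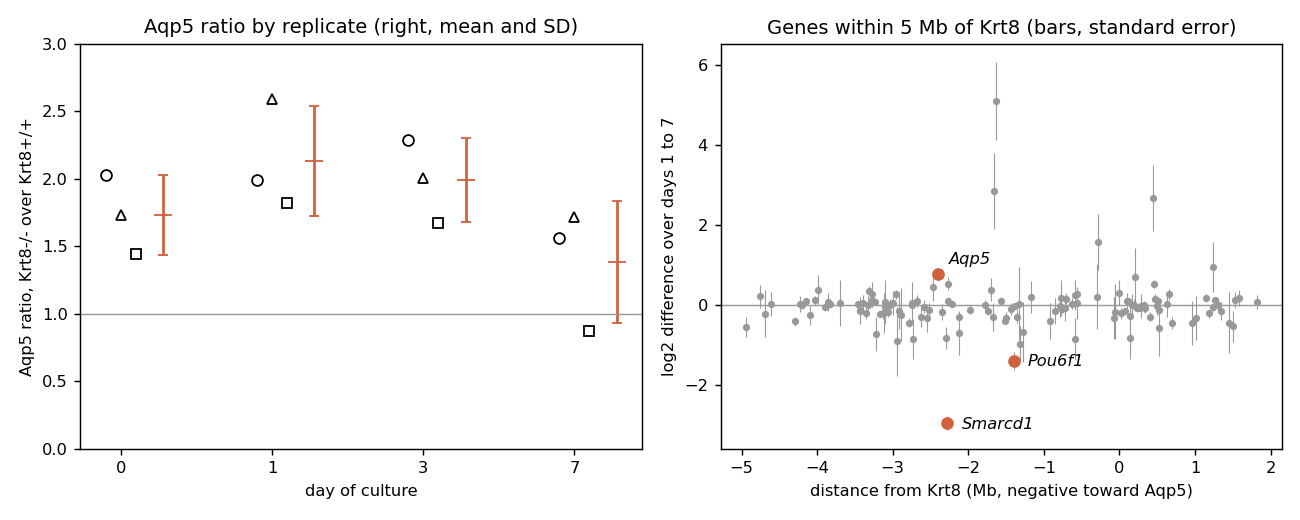
Left, ratio of Aqp5 CPM in Krt8-/- over Krt8+/+ AECs by day and replicate (circle, 1, triangle, 2, square, 3), with the mean and SD in red and a grey line at a ratio of 1. Right, log2 difference between Krt8-/- and Krt8+/+ AECs over days 1 to 7 for 133 of the 141 genes tested within 5 Mb of Krt8, Aqp5 included (those with a standard error of at most 1, shown as bars) against the distance from Krt8 in Mb, where Aqp5 at 0.77, Smarcd1 at -2.94, and Pou6f1 at -1.39 are named.

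Other genes known from AEC1s gave a setting for the 10 members. Of 26 such genes, 12 were higher and 11 lower than day 0 on day 1 in Krt8+/+ AECs (26.2% and 28.5% of all genes), 17 and 4 on day 3 (26.1% and 27.8%), and 17 and 5 on day 7 (28.6% and 30.2%). The largest rises on day 7 were those of Bdnf, a neurotrophin (log2 7.36, standard error 0.53), Sema3a, a semaphorin (5.07), Akap5, an anchor of protein kinase A (5.01), and Fstl3, a follistatin-like inhibitor of activin (4.87). The largest falls were those of Sec14l3 (-7.43), Cyp2b10, a cytochrome P450 (-3.83), Limch1 (-1.71), and Cldn18, a claudin of alveolar tight junctions (-0.77). Between genotypes, edgeR called 0 of the 26 on any day, with 2, 2, 0, and 1 unadjusted p under 0.05 on days 0, 1, 3, and 7. Of the 17904 genes tested outside 5 Mb of Krt8, 2.59%, 3.5%, 2.42%, and 1.37% had such a p on these days.

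On day 7 in Krt8+/+ AECs, 28.6% of all genes were higher than on day 0 and 30.2% lower. Of 6 tested caveola genes beside Cav1 and Cavin1, 4 were higher and 0 lower: Cavin3 (log2 2.59, standard error 0.24), Cavin2 (1.87, 0.51), Ehd2, an ATPase at the caveolar neck (1.65, 0.14), and Cav2 (0.48, 0.14). Of 5 tested aquaporins beside Aqp5, 2 were lower and 0 higher, namely Aqp4 (-8.25, standard error 1.66) and Aqp3 (-2.16, 0.88). Among 9 tested relatives of the members, 5 were higher and 4 lower. Emp3 (3.32), Emp1 (2.38), Clic4 (1.55), and Clic1 (1.5) rose, and Spock3 (-3.28), Clic6 (-2.87), Rtkn (-1.89), and Clic3 (-1.4) fell. Rtkn and Rtkn2 thus differed in direction on day 7, as did Clic3 and Clic5.

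Likeness of course was described by Pearson's r of log2 CPM over the 24 libraries, which share replicates and culture days, so no p is given. Among the members, r was highest for Emp2 and Rtkn2 (0.93), both of which dipped on day 1, and for Cav1 and Cavin1 (0.85), the caveola pair. It was 0.83 for Hopx and Emp2 and 0.81 for Pdpn and Cavin1. It was lowest for Cavin1 and Aqp5 (-0.83) and for Pdpn and Aqp5 (-0.81). Over all genes tested, the course of Ager was most like that of Cadm1 (0.963), that of Aqp5 most like Sgsm3 (0.927) and Ctsh (0.924), and that of Pdpn most like Abcc1 (0.977). Hopx was nearest to Myof (0.928) and the caveola gene Ehd2 (0.927), Cav1 to Dpysl3 (0.959), Cavin1 to Map7d1 (0.973), and Clic5 to Rin2 (0.957). Emp2 was nearest to Trim3 (0.963) and Spock2 to Igfbp2 (0.961), which encodes an insulin-like growth factor binding protein of mature AEC1s. Rtkn2 was nearest to Hs2st1 (0.951), with Phldb2 and the collagen gene Col1a2, one of the fibroblast markers, next at 0.935 each.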

How the data were processed

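The authors deposited 1 table of raw counts per gene for 24 libraries, with 55426 entries, 5 of them reporters at 0 counts. The submitters' processing notes name cutadapt 2.3, STAR 2.7.8a, RSEM 1.3.3, and the build GRCm38, without saying which gave the counts, so they may be rounded estimates. Strand is not stated, and reads of overlapping antisense genes (at most 97 counts beside a member) cannot be told apart. Symbols, exon lengths, and positions came from GENCODE M21 (GRCm38), which named 55240 identifiers, and promoter windows from RefSeq.

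The members, lists, and tests were chosen with earlier results of these data known. Analyses used R 4.3.3, edgeR 4.0.16 (TMM, filterByExpr with min.count 10 and min.total.count 15, 1 quasi-likelihood model of 8 groups with 16 residual degrees of freedom), and DESeq2 1.42.0. Adjusted p values are Benjamini-Hochberg over all genes tested, with a threshold of 0.05. Correlations used log2 CPM with a prior count of 2. Beside the members, the named genes were up to 4 per list and direction past 0.05 on day 7 in Krt8+/+ AECs, largest change first, with at least 1 CPM in a group and 1 direction in 3 replicates. For each member the 3 genes most like it were found, and genes called between genotypes within 5 Mb of Krt8 were listed. Gm47021, Krt8-ps, and the neighbours of Aqp5 were named after their values were seen.

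The labels give 3 batches, each shared by both genotypes and all days, so replicate numbers pair the libraries. Across genes, what set paired libraries off from the mean of their group correlated at 0.0573 to 0.548 between genotypes and at -0.0345 to 0.383 between days. The batch entered as a replicate block in an alternative. Other alternatives were DESeq2's size factors and test, no filter on low counts, each replicate left out of all groups, and a log2(CPM + 1) scale for midpoint days. No 2 libraries of a group were identical (24 pairs). On simulated counts of 18046 genes, with 97 or 98 tested genes changed at each fold, day 7 against day 0 recovered 39.2% of 2-fold and 75.5% of 4-fold changes. Krt8-/- against Krt8+/+ AECs on day 7 recovered 39.8% and 73.2%. False calls numbered 6 and 5. In the data 28.6% of genes were called higher and 30.2% lower on day 7 than on day 0 in Krt8+/+ AECs. The simulation changed far fewer, so its recovery need not hold for that comparison. Between genotypes on day 7, only 0.0166% of genes were called in the data, fewer than the simulation changed. Its recovery need not hold there either, and may be lower than simulated. The labels do not say whether animals were pooled, so p values measure the spread between these libraries.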

Additional observations from a re-analysis of the deposited data

Results flagged for a closer look

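For a pair of genes, every replicate moved 1 way between genotypes on 1 day and the opposite way on another. Pdpn was higher in Krt8-/- AEC2s in 3 of 3 replicates on day 0 (log2 difference 1.08) and lower in 3 of 3 on day 1 (-0.50). Hopx was higher in 3 of 3 replicates on day 0 (0.57) and on day 3 (0.39), and lower in 3 of 3 on day 7 (-0.34). The difference by day was tested over all 4 days with edgeR and gave an unadjusted p of 0.0564 for Pdpn and 0.024 for Hopx (adjusted p = 1 for both). The days set against each other here were not tested as pairs. The share of all genes with such a turn is not given, so the pattern cannot be called particular to Pdpn and Hopx.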

How the results depend on the processing

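With the replicate block, without the filter on low counts, and with the DESeq2 test, 1 member passed between genotypes over days 1 to 7, which was Aqp5 (log2 difference 0.79, 0.76, and 0.75). The cause was not tested. The paired fit with the replicate block changed 4 member calls in all: Aqp5 over days 1 to 7, Hopx on day 1 (0.49) and Ager on day 7 (-1.0) in Krt8+/+ AECs, and the fall of Emp2 from day 3 to day 7 in Krt8-/- AECs (-0.54). On the log2(CPM + 1) scale the midpoint days of Cav1, Cavin1, and Clic5 were 2.55, 1.5, and 1.15.

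Leaving out 1 replicate at a time, which also leaves fewer libraries, gave 3 to 5 members called from day 1 to day 3 in Krt8+/+ AECs, 1 to 3 from day 3 to day 7 in Krt8+/+ AECs, and 3 to 5 in Krt8-/- AECs. The share of all genes called in these fits is not given. In the same fits, signs turned for differences that had not passed the threshold. Between genotypes over days 1 to 7 these were Ager (-0.07 to 0.32), Cavin1 (-0.05 to 0.09, one more fit at -0.01), Clic5 (-0.31 to 0.02), and Emp2 (-0.02 to 0.18). On day 1 in Krt8-/- AECs they were Hopx (-0.06 to 0.29, one more fit at -0.05) and Cav1 (-0.13 to 0.34), and on day 3 in Krt8+/+ AECs Spock2 (-1.22 to 0.06). Low counts limit Rtkn2 and Spock2 on day 1, with at most 47 and 30 counts in a library.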
